A study of Mus musculus with 24 samples.

Results

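The genes described here are those of the mouse major histocompatibility complex (MHC, named H2 in the mouse) with their antigen presentation partners, in the epididymal white adipose tissue (eWAT) of mice with and without Cre-mediated loss of Lama4 in adipocytes. They were chosen by symbol: every row of the deposited table whose mouse symbol begins with H2 and a hyphen, together with Cd74, B2m, Ciita, Tap1, Tap2 and Tapbp. This gave 29 genes of 16730 rows, 14067 of which carry a symbol. The class I group holds 17 of them, the class II group 11, and H2-Ke6, a hydroxysteroid dehydrogenase that has the prefix but presents no antigen, stands alone. On GRCm38, 26 lie on chromosome 17, while B2m lies on chromosome 2, Ciita on chromosome 16 and Cd74 on chromosome 18. Bulk RNA came from 24 male mice on a C57BL/6 background, aged 24 to 26 weeks, and was sequenced by QuantSeq, which reads only the 3′ end of a transcript. There were 6 mice in each of 4 groups: Lama4 fl/fl mice, which carry the loxP-flanked Lama4 gene without Cre, and Lama4 AKO mice, in which Cre under the adiponectin promoter removes exon 3 of Lama4 in adipocytes, each on chow (diet 5015) or on a high-fat diet (HFD, 45% fat) for 20 weeks. All 4 groups carry the floxed allele, and the deletion is limited to cells that use the adiponectin promoter, so the other cells of the tissue keep Lama4.

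Class I molecules show peptides from inside the cell to CD8 T cells and are made by nearly every nucleated cell. Their heavy chain pairs with beta-2-microglobulin (B2m), and peptides reach it through the transporter of Tap1 and Tap2, with tapasin (Tapbp) as the bridge. Class II molecules show peptides from taken-up material to CD4 T cells and are made mainly by macrophages, dendritic cells and B cells. The invariant chain Cd74 guards their groove until the H2-DM chaperone exchanges it for peptide, H2-O holds H2-DM back, and Ciita is the coactivator that switches the class II genes on. Adipocytes can also make class II molecules. C57BL/6 mice carry the b haplotype of H2, in which the alpha chain of the I-E molecule is not made, so that the surface class II molecule is the pair of H2-Aa and H2-Ab1.

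The promoters of both classes carry known elements, and 4 are shown to let a reader see them beside the values that follow. RefSeq windows of GRCm38.p6, each running from 250 bases before to 50 bases after a start site, were found for 23 of the 29 genes, and not for Cd74, Ciita, H2-Ab1, H2-T10, H2-T24 and Tap2. Capitals mark ATTGG (the Y box, CCAAT on the other strand), CCTAGNNAC (the X box core), TGACGTCA (a cyclic AMP response element), TTTCACTT (the core of an interferon-stimulated response element) and GGGATTCCC (a site for NF-kB), each sought on both strands. H2-K1 (chr17:34000298-34000597, minus strand) and B2m (chr2:122147437-122147736, plus strand) stand for class I. H2-Eb1 (chr17:34305617-34305916, plus strand) and H2-Ob (chr17:34238655-34238954, plus strand) stand for class II, and H2-Ob was picked after the search because it holds an X box core.
H2-K1: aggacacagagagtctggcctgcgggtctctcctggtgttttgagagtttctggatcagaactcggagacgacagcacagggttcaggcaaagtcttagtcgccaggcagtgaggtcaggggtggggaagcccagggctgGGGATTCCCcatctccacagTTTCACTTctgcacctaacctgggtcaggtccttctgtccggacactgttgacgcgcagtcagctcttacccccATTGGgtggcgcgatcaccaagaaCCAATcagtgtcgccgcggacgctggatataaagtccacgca
B2m: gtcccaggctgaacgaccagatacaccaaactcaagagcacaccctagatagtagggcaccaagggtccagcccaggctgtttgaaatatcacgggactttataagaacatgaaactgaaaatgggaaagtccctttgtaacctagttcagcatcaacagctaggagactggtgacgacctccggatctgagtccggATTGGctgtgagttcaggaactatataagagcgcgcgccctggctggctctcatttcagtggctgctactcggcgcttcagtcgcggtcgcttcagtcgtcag
H2-Eb1: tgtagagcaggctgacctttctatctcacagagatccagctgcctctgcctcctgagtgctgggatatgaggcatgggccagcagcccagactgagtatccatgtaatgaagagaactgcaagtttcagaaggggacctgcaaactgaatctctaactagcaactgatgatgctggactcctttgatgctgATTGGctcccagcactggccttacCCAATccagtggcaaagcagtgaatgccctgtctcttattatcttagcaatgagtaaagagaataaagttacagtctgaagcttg
H2-Ob: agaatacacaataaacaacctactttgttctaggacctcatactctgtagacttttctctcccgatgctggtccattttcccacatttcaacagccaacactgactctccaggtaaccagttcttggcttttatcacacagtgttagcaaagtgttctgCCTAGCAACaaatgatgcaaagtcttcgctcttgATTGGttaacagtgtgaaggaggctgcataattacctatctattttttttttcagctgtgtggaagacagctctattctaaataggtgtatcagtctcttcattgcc
The Y box stood in 8 of 8 class II genes with a window and in 13 of 14 class I genes, beside 41.1% of all 27025 genes with a window. The interferon-stimulated core stood in 8 of 14 class I genes (H2-D1, H2-K1, H2-M3, H2-Q10, H2-Q4, H2-Q6, H2-Q7 and H2-T22) and in 0 of 8 class II genes, beside 1.91% of all genes. The NF-kB letters stood in H2-D1, H2-K1, H2-Q6 and H2-Q7, beside 0.414% of all genes. The X box core stood in H2-DMb1 and H2-Ob of class II, in H2-M9 of class I and in H2-Ke6, beside 4.60% of all genes, and the cyclic AMP element in H2-Aa, beside 2.03%. These are matches of letters and no measured binding.

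Library totals lay between 5579590 and 18764516 counts. Values are CPM, the counts scaled to library size with TMM factors. Markers of adipocytes summed to 8752 to 45167 CPM in every library, and of 9 epididymis and testis markers Lcn5 was in the table, at up to 13.2 CPM in replicate 4 of chow-fed fl/fl. Lama4 itself had 41.8 to 193.6 CPM in chow-fed fl/fl, 63.0 to 132.6 in chow-fed AKO, 32.5 to 134.4 in HFD-fed fl/fl and 37.0 to 91.4 in HFD-fed AKO libraries. The log2 fold change of AKO over fl/fl was 0.11 ± 0.34 (SE) on chow and -0.69 ± 0.35 on HFD, and neither was called. The 3′ end lies outside the deleted exon, so this level does not check the genotype, and the mice are called by their labels. The paper itself reports, by quantitative PCR, less Lama4 in eWAT of chow-fed AKO mice than of control mice. The libraries that the study set aside by principal components are not named in the sources used here. The 19 libraries used here as the alternative set were inferred, and leave out replicate 3 of chow-fed fl/fl, replicate 5 of chow-fed AKO and replicates 3, 4 and 6 of HFD-fed fl/fl. Results are given for all 24 libraries and for these 19. A gene is called where the fold change is 1.5 or more, the unadjusted p is 0.001 or less, and the group with the higher level averages 2 CPM or more. The p comes from edgeR's quasi-likelihood test, with Benjamini-Hochberg adjustment over all genes tested.

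The class II surface chains varied more between the mice of a group than between the group medians. H2-Aa, the alpha chain, had a lowest, median and highest value of 598.8, 2060 and 4549 CPM in chow-fed fl/fl, 911.3, 1542 and 4616 in chow-fed AKO, 892.9, 2154 and 4162 in HFD-fed fl/fl and 1469, 2180 and 4024 in HFD-fed AKO libraries. The 4 ranges overlap widely, and in the HFD-fed AKO group the lowest library stood above the lowest of each other group. H2-Ab1, the beta chain that pairs with it, had 315.7, 1016 and 1855 CPM in chow-fed fl/fl, 569.9, 793.4 and 2842 in chow-fed AKO, 495.2, 1263 and 2877 in HFD-fed fl/fl and 676.2, 1102 and 1765 in HFD-fed AKO libraries. H2-Eb1, the beta chain of I-E, had 348.8, 979.2 and 2124 CPM, 575.9, 767.0 and 2958 CPM, 475.1, 1149 and 1989 CPM, and 658.3, 985.3 and 1919 CPM in the same order of groups. For all 3 chains, the lowest library of chow-fed fl/fl was replicate 1 and the highest replicate 3, and replicate 6 led the chow-fed AKO group. Over 24 libraries the log2 fold changes of these 3 genes in the diet and genotype comparisons lay between -0.25 and 0.49, with unadjusted p-values of 0.272 or more. H2-Eb2, a second beta chain gene, was barely detected, at no more than 1.56 CPM in any library and 0 counts in 2.

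Cd74, the invariant chain, followed the surface chains. Its lowest, median and highest values were 278.4, 718.6 and 2060 CPM in chow-fed fl/fl, 465.2, 662.4 and 2107 in chow-fed AKO, 359.3, 1056 and 3692 in HFD-fed fl/fl and 661.1, 1224 and 1591 in HFD-fed AKO libraries. The medians of both HFD groups stood above those of both chow groups, but all ranges overlap. Relative to H2-Aa, Cd74 was highest in replicate 1 of HFD-fed fl/fl, at a ratio of 0.887, and the group medians of this ratio lay between 0.376 and 0.489.

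The chaperones of class II were present at lower levels. H2-DMa, one chain of the peptide exchanger, had 28.3, 65.5 and 146.0 CPM in chow-fed fl/fl, 48.0, 69.7 and 188.2 in chow-fed AKO, 46.1, 99.1 and 313.0 in HFD-fed fl/fl and 59.6, 86.9 and 114.5 in HFD-fed AKO libraries. H2-DMb1, its partner chain, had 29.7, 152.2 and 169.1 CPM, 61.8, 143.5 and 241.8 CPM, 69.6, 111.2 and 197.9 CPM, and 79.1, 104.7 and 150.4 CPM in the same order. The median of H2-DMa was thus higher and that of H2-DMb1 lower in the HFD groups than in the chow groups, with wide overlap for both. H2-DMb1 shares 22% of the 50-base windows in its last 400 bases with H2-DMb2, so their reads may be split between them. H2-DMb2 ranged from 1.42 to 31.1 CPM over the 24 libraries. H2-Oa and H2-Ob, the chains of the H2-DM inhibitor, had group medians of 1.38 to 2.94 and 3.02 to 7.55 CPM, and their highest libraries in the HFD groups were replicate 1 of HFD-fed fl/fl and replicate 1 of HFD-fed AKO. These 2 libraries also had the highest B cell marker sums, 79.2 and 87.0 CPM, a part of the result that was not tested.

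**Figure D1:**
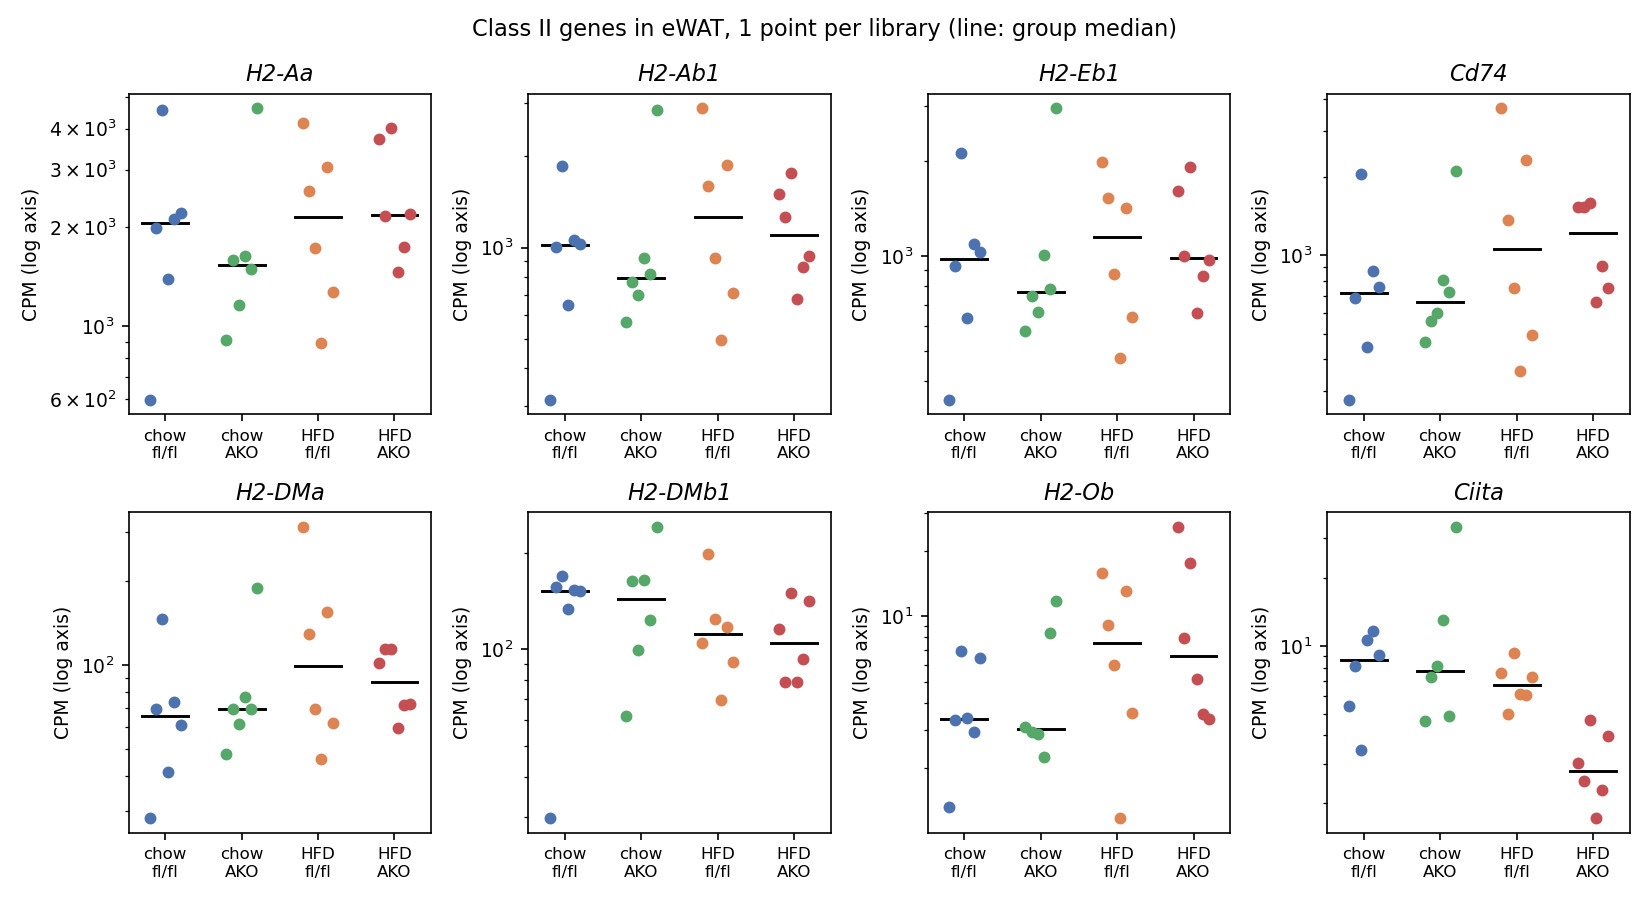
CPM of 8 class II genes (vertical log axes) in the 4 groups, with 1 point per library and a line at the group median. The ranges overlap for every gene except Ciita, whose 6 HFD-fed AKO libraries (1.72 to 4.69 CPM) lie below all 6 HFD-fed fl/fl libraries (4.98 to 9.27 CPM), a separation of these 2 groups that 0.479% of all genes tested also had.

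Ciita, the coactivator of these genes, was the 1 gene of the 28 tested that was called over all 24 libraries, in the comparison of HFD with chow in AKO mice, where 4.12% of the 15020 genes tested were called. Its lowest, median and highest values were 3.43, 8.62 and 11.7 CPM in chow-fed fl/fl, 4.63, 7.71 and 33.8 in chow-fed AKO, 4.98, 6.71 and 9.27 in HFD-fed fl/fl and 1.72, 2.77 and 4.69 in HFD-fed AKO libraries. The HFD-fed AKO group was the lowest, with its highest library just above the lowest of the chow-fed AKO group. The ranges of these 2 groups were separate for 0 of the 28 genes tested, Ciita included, beside 6.96% of all genes. Ciita fell by 1.98 ± 0.42 (SE) on the log2 scale in AKO mice on HFD, a 3.94-fold lower level (edgeR, unadjusted p = 8.16e-05, adjusted p = 0.0124). Over the 19 libraries it fell by 2.13 ± 0.41 (adjusted p = 0.00085 by edgeR), where 15.7% of 14863 genes were called, and it was the 1 gene of 27 called there too. It stayed called with each of the 24 libraries left out in turn, with a log2 fold change between -2.15 and -1.33, and the smallest change was that without replicate 6 of chow-fed AKO. With limma-voom on 24 libraries it stood at -1.72 with an unadjusted p of 0.00118, just past the limit for a call.

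In fl/fl mice the diet difference of Ciita was -0.25 ± 0.40 (adjusted p = 0.876 by edgeR). The difference between AKO and fl/fl on HFD was -1.16 ± 0.41 (edgeR, unadjusted p = 0.01, adjusted p = 0.293) and the interaction of diet and genotype -1.72 ± 0.57 (edgeR, unadjusted p = 0.00596, adjusted p = 0.244), and neither was called. On chow, AKO stood 0.57 ± 0.39 above fl/fl (adjusted p = 0.928 by edgeR). The gene rested on few reads, between 19 and 508 counts per library.

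Markers of several cell types also differed in the same comparison of HFD with chow in AKO mice, and their part in the result of Ciita was not tested. In bulk tissue, fewer cells of a type and less RNA per cell cannot be told apart. An unadjusted p under 0.05 was reached by 39.8% of all genes in this comparison, with 2737 of the 15020 genes higher and 3239 lower. Of 8 adipocyte markers, 6 were lower at that limit, with Lep called, and their summed level was 14849 to 37066 CPM on chow and 8837 to 23755 on HFD. Of 6 endothelial markers 5 were lower, with sums of 326.6 to 707.8 CPM on chow and 224.5 to 455.2 on HFD, and of 5 mesothelial markers 4 were lower, with Msln called and sums of 26 to 142.6 CPM on chow and 9.49 to 50.2 on HFD. Macrophage markers went the other way, with 4 of 8 higher and none called. Their sums were 2011 to 7165 CPM on chow and 5891 to 11409 on HFD. Of 5 stromal progenitor markers 2 were higher, with Pdgfra called (0.69 ± 0.18). Their sums were 2464 to 3655 CPM on chow and 3285 to 4209 on HFD. Over the 19 libraries, 7 of 8 macrophage markers (Cd68 called) and 3 of 5 stromal progenitor markers (Col1a1 and Pdgfra called) were higher. Lower in that set were 7 of 8 adipocyte, 5 of 6 endothelial and 4 of 5 mesothelial markers. Of all 14863 genes, 3519 were higher and 3789 lower there, and 15.7% were called. Over 24 libraries, 1 of 8 dendritic cell markers was higher, and 0 of 7 B cell and 0 of 8 T and NK cell markers passed that limit. Over the 19, 2 of 8 dendritic cell markers were higher (Itgax called) and 2 lower. In that set 3 of 7 B cell markers were higher without a call, and 0 of 8 T and NK cell markers passed. No marker of these lists was at 0 in all 6 libraries of a group. Ciita overlaps Dexi on the opposite strand, and Dexi, a gene of uncertain function, stood at 0.93 ± 0.27 (edgeR, unadjusted p = 0.00193) in this comparison without being called, a difference opposite in sign to that of Ciita. Over the 19 libraries Dexi was called higher on HFD, at 0.99 ± 0.18 in AKO mice (adjusted p = 0.000574 by edgeR) and at 1.21 ± 0.21 in fl/fl mice (adjusted p = 0.000598).

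**Figure D2:**
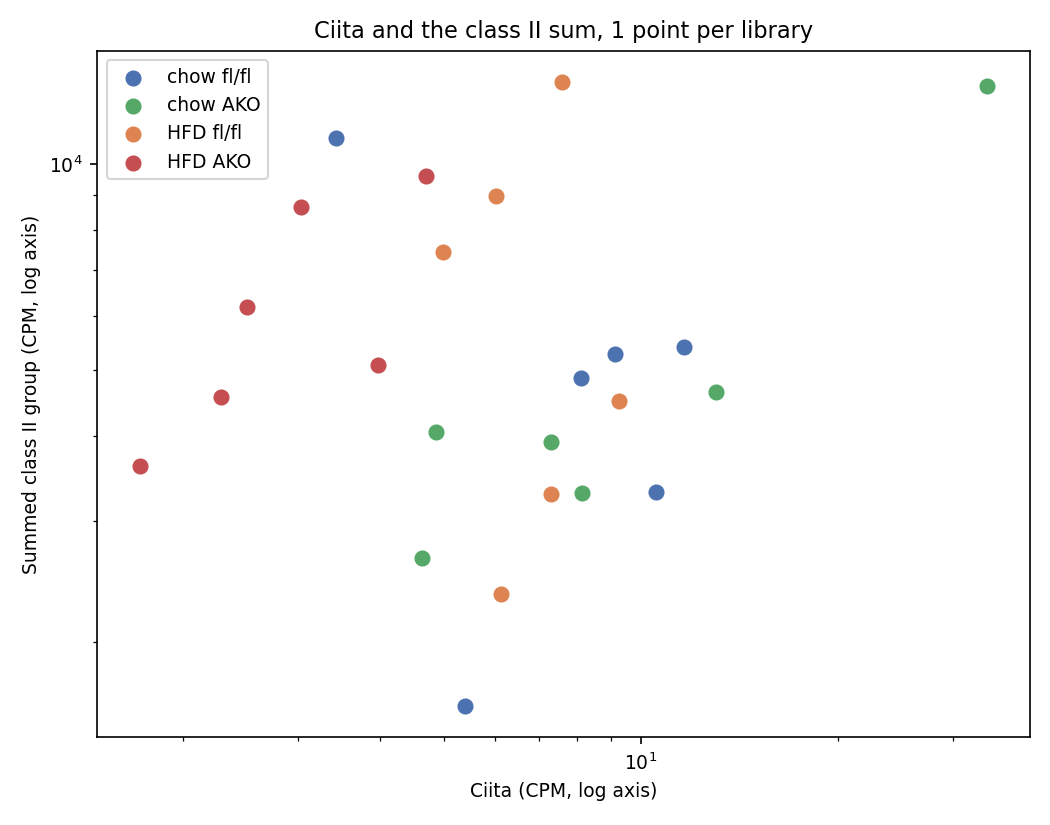
Summed CPM of the 11 class II genes (vertical log axis) against Ciita CPM (horizontal log axis), 1 point per library. The HFD-fed AKO libraries lie to the left, with Ciita of 1.72 to 4.69 CPM, at class II sums of 3618 to 9612 CPM that fall inside the range of the other groups.

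The class II sum of the HFD-fed AKO libraries lay within the range of the other groups. Its lowest, median and highest values were 1609, 5061 and 10928 CPM in chow-fed fl/fl, 2648, 3982 and 13018 in chow-fed AKO, 2349, 5964 and 13189 in HFD-fed fl/fl and 3618, 5633 and 9612 in HFD-fed AKO libraries. Divided by Ciita, this sum had a lowest, median and highest value of 355.8, 471.1 and 832.7 in chow-fed AKO libraries. In HFD-fed AKO libraries it had 1278, 2078 and 2857, and these 2 groups did not overlap. The divisor is the gene called lower in this same comparison, so the separation is not independent of that call. How often the ratio to another gene would separate the groups was not tested. In fl/fl mice the same ratio ran from 298.8 to 3186 on chow and from 384.0 to 1741 on HFD, and overlapped. The highest chow value was replicate 3, a library with the group's lowest Ciita and highest class II sum. After centring on group means, the log2 CPM of Ciita over the 24 libraries correlated with H2-Aa at r = 0.382 (Spearman rho = 0.359), with H2-Ab1 at r = 0.393 (rho = 0.316) and with H2-Eb1 at r = 0.414 (rho = 0.374). With Cd74 it was r = 0.232 (rho = 0.214) and with H2-DMa r = 0.265 (rho = 0.219). The permutation p-values of these 5 relations were 0.0768 to 0.249 for r and 0.0865 to 0.308 for rho, and 0.154 to 0.249 and 0.236 to 0.308 after adjustment over the 5. Without replicate 6 of chow-fed AKO and replicate 3 of chow-fed fl/fl, the libraries farthest from the median of Ciita, r lay between 0.238 and 0.436. Within groups of 6 the sign differed: r with H2-Aa was 0.901 in chow-fed AKO and 0.782 in HFD-fed AKO libraries, but -0.207 in chow-fed and -0.0684 in HFD-fed fl/fl libraries.

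Among the class I genes, H2-K1, H2-D1, B2m and Tapbp differed less between the mice of a group than the class II surface chains did. The SD of log2 CPM within a group was 0.2868 to 0.5755 for H2-K1 and 0.5841 to 0.9604 for H2-Aa. The other class I genes went both ways. This SD was 0.7458 to 1.498 for H2-M2 and 0.7169 to 1.659 for H2-T23, but 0.1575 to 0.4576 for H2-T10. H2-K1, a classical heavy chain, had a lowest, median and highest value of 754.5, 1241 and 1844 CPM in chow-fed fl/fl, 955.9, 1145 and 2620 in chow-fed AKO, 971.0, 1287 and 1955 in HFD-fed fl/fl and 883.9, 1141 and 1486 in HFD-fed AKO libraries. H2-D1, the other, had 973.8, 1392 and 1627 CPM, 912.6, 1265 and 2882 CPM, 1108, 1385 and 1923 CPM, and 1508, 1599 and 1842 CPM in the same order. H2-D1 thus had its narrowest range, and its highest median, in HFD-fed AKO libraries, but its difference from HFD-fed fl/fl, 0.25 ± 0.23 on the log2 scale, was not called. B2m, the invariant light chain, had 4205, 5593 and 9324 CPM, 4278, 6490 and 8300 CPM, 4344, 5602 and 7925 CPM, and 4483, 4743 and 6507 CPM. The class I sum spanned 1.38 to 2.13-fold within a group, the class II sum 2.66 to 6.79-fold. The SD between libraries within a group of the mean log2 CPM of a class, pooled over the 4 groups, was 0.483 for class I and 0.756 for class II genes. H2-D1 and H2-K1 share 22.5% and 13.3% of their 3′ windows with other H2 genes.

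Of the peptide loading partners, Tap1 and Tap2 were the most variable. Tap1, 1 subunit of the peptide transporter, had 19.7, 34.2 and 91.2 CPM in chow-fed fl/fl, 25.1, 32.2 and 146.7 in chow-fed AKO, 23.1, 49.9 and 228.3 in HFD-fed fl/fl and 30.9, 44.5 and 76.7 in HFD-fed AKO libraries. Tap2, the other subunit, had 22.4, 42.1 and 52.4 CPM, 16.3, 94.7 and 154.5 CPM, 4.34, 78.1 and 108.0 CPM, and 35.7, 72.4 and 86.8 CPM. The highest libraries of Tap1 were also the highest class II libraries of their groups on chow and in HFD-fed fl/fl mice, while those of Tap2 were not. Tapbp, the tapasin gene, ranged from 209.6 to 543.2 CPM over all libraries. Tap1 overlaps Psmb9 on the opposite strand and Tapbp overlaps Zbtb22 on the same strand. On the opposite strand, Tapbp also overlaps Gm19412, H2-DMa overlaps Brd2, H2-Q4 overlaps Gm11131, and H2-T22, H2-T23 and H2-T24 overlap A930015D03Rik. Brd2, with group medians of 200.8 to 249.6 CPM, stood above H2-DMa.

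The other class I heavy chains were low. H2-T22, a ligand of some gamma delta T cells, had 35.0, 40.9 and 49.7 CPM in chow-fed fl/fl, 31.7, 53.7 and 89.2 in chow-fed AKO, 9.13, 44.9 and 57.7 in HFD-fed fl/fl and 29.2, 33.1 and 42.9 in HFD-fed AKO libraries. H2-T10, its near copy, had 1.62, 1.90 and 2.26 CPM, 1.68, 2.39 and 4.33 CPM, 1.295, 1.99 and 2.76 CPM, and 1.18, 1.47 and 1.95 CPM. They share 34.4% and 34.9% of their 3′ windows with other genes, each with the other as the leading partner. Their reads may thus be split between them, and they are not fully separate measurements. H2-T24 had 0.259, 1.12 and 2.13 CPM, 0.503, 0.845 and 2.40 CPM, 0.188, 0.552 and 0.920 CPM, and 0.104, 0.404 and 0.752 CPM, the lower medians being those of the HFD groups. H2-Q4 ranged from 6.60 to 41.5 CPM, H2-M2 from 1.32 to 57.9 and H2-M3, which presents formylated peptides, from 4.06 to 24.9. H2-T23, the chain of Qa-1, ranged from 0.178 to 11.7 CPM, H2-Q7, a chain of Qa-2, from 29.3 to 309.0, H2-Q6 from 1.93 to 28.8 and H2-Q10 from 1.295 to 19.6. H2-Q6 shares 52% of its 3′ windows with other genes, H2-Q7 first among them, and H2-Q4 shares 27.9%, so the reads of both may be split. H2-Ke6, the dehydrogenase, reached at most 1.59 CPM and shares 68.6% of its windows with Gm20427. H2-M9 had 92 counts in all and did not pass the filter of 1 CPM in 3 libraries.

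**Figure D3:**
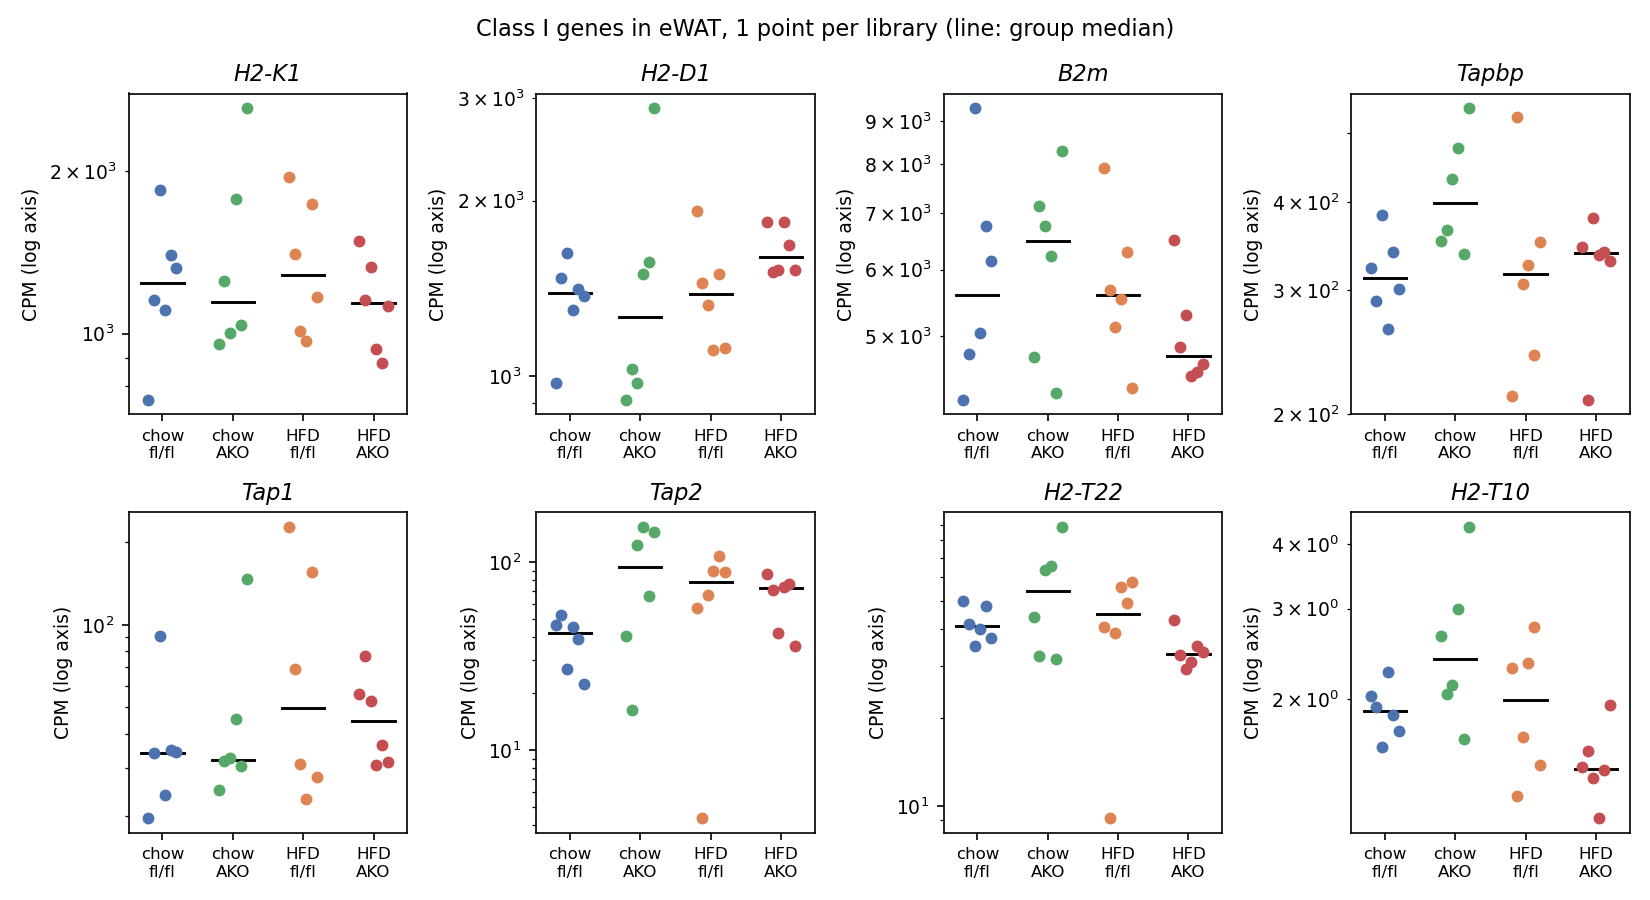
CPM of 8 class I genes (vertical log axes) in the 4 groups, with 1 point per library and a line at the group median. By the SD of log2 CPM within a group, H2-K1, H2-D1, B2m and Tapbp varied less than Tap1 and Tap2. In chow-fed AKO libraries H2-D1 still ranged from 912.6 to 2882 CPM. Tap1 reaches 228.3 CPM in a HFD-fed fl/fl library and Tap2 drops to 4.34 CPM in another.

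In the comparison of HFD with chow in fl/fl mice over 24 libraries, 0 of 28 members were called by edgeR, beside 0.173% of all genes tested. At an unadjusted p under 0.05 there were 4, namely H2-M2 (log2 fold change 1.41 ± 0.66), H2-Q4 (0.93 ± 0.42), Tap1 (1.15 ± 0.54) and H2-T24 (-1.12 ± 0.48), beside 9.01% of all genes. DESeq2 and limma-voom also called 0 members. The median log2 fold change was 0.15 over the 16 tested class I genes and 0.78 over the 11 class II genes, against -0.01 over all genes.

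With the 19 libraries, 3 of 27 members were called in this comparison, all higher on HFD, beside 11.8% of all genes tested, so the share of members called was near the background. Tap1 stood at 2.32 ± 0.48 (adjusted p = 0.00217 by edgeR), Cd74 at 1.98 ± 0.47 (adjusted p = 0.00497) and H2-DMa at 1.81 ± 0.40 (adjusted p = 0.00307). At an unadjusted p under 0.05 there were 10, beside 41.4% of all genes. The class II median was 1.34, of which H2-DMb2 reached 2.05 ± 0.67, H2-Ob 1.8 ± 0.64 and H2-Ab1 1.34 ± 0.47 without being called. The 3 HFD-fed fl/fl libraries of this set were the 3 highest of the 6 in class II sum, at 13189, 8975 and 7432 CPM, and those left out had 4497, 3288 and 2349. They were also the 3 lowest in adipocyte marker sum, at 8752, 14117 and 11306 CPM against 23257, 37372 and 44225. The chow-fed fl/fl library left out had the highest class II sum of its group. Without replicate 1 of HFD-fed fl/fl, 0 of the 3 were called, at 1.88 for Tap1, 1.55 for Cd74 and 1.3 for H2-DMa, each the lowest value over the 19 fits that leave out 1 library. Cd74 was also not called without replicates 1, 2 or 4 of chow-fed fl/fl or replicate 5 of HFD-fed fl/fl.

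In AKO mice the comparison of HFD with chow over 24 libraries gave an unadjusted p under 0.05 for 4 members, beside 39.8% of all genes, a smaller share than the background. Besides Ciita these were H2-T24 (-1.41 ± 0.50), H2-T10 (-0.82 ± 0.24) and H2-T22 (-0.68 ± 0.30), all 3 of them lower on HFD and not called. In the set of 19, the same limit was passed by 6 of 27 members, beside 49.2% of all genes. The class I median was -0.27 and the class II median 0.41 over 24 libraries, against -0.00 over all genes. The class I value turned to 0.25 without replicate 6 of chow-fed AKO, and the class II value was 0.88 without it. H2-Aa (0.42 ± 0.44), H2-Ab1 (0.08 ± 0.44), H2-Eb1 (0.06 ± 0.43) and Cd74 (0.41 ± 0.51) each had a difference smaller than its standard error.

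Between AKO and fl/fl mice on chow, 0 of 28 members were called by edgeR, beside 0.113% of all genes. At an unadjusted p under 0.05 there were 2, Tap2 at 1.22 ± 0.50 and Tapbp at 0.39 ± 0.18, beside 5.85% of all genes. DESeq2 and limma-voom also called 0. Over the 19 libraries 0 of 27 were called, beside 0.209% of all genes, and the unadjusted limit was passed by 8.5% of all genes and by Tap1 (0.93 ± 0.43) and Tapbp (0.50 ± 0.21) among the members. The medians of 0.38 for class I and 0.29 for class II turned to -0.13 and -0.24 without replicate 6 of the chow-fed AKO group.

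Between AKO and fl/fl mice on HFD, 0 of 28 members were called by edgeR, beside 0.173% of all genes, and Ciita alone passed an unadjusted p of 0.05, beside 14.8% of all genes. DESeq2 and limma-voom also called 0. Over the 19 libraries 0 of 27 were called, beside 0.565% of all genes. The unadjusted limit was passed by 11.1% of all genes and by 4 members, all lower in AKO mice: Tap1 (-1.65 ± 0.46), H2-DMa (-1.13 ± 0.38), Cd74 (-1.05 ± 0.45) and Ciita (-0.98 ± 0.46). The class II median was 0.05 over 24 and -0.43 over 19 libraries, so the sign of this group depended on which libraries entered.

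**Figure D4:**
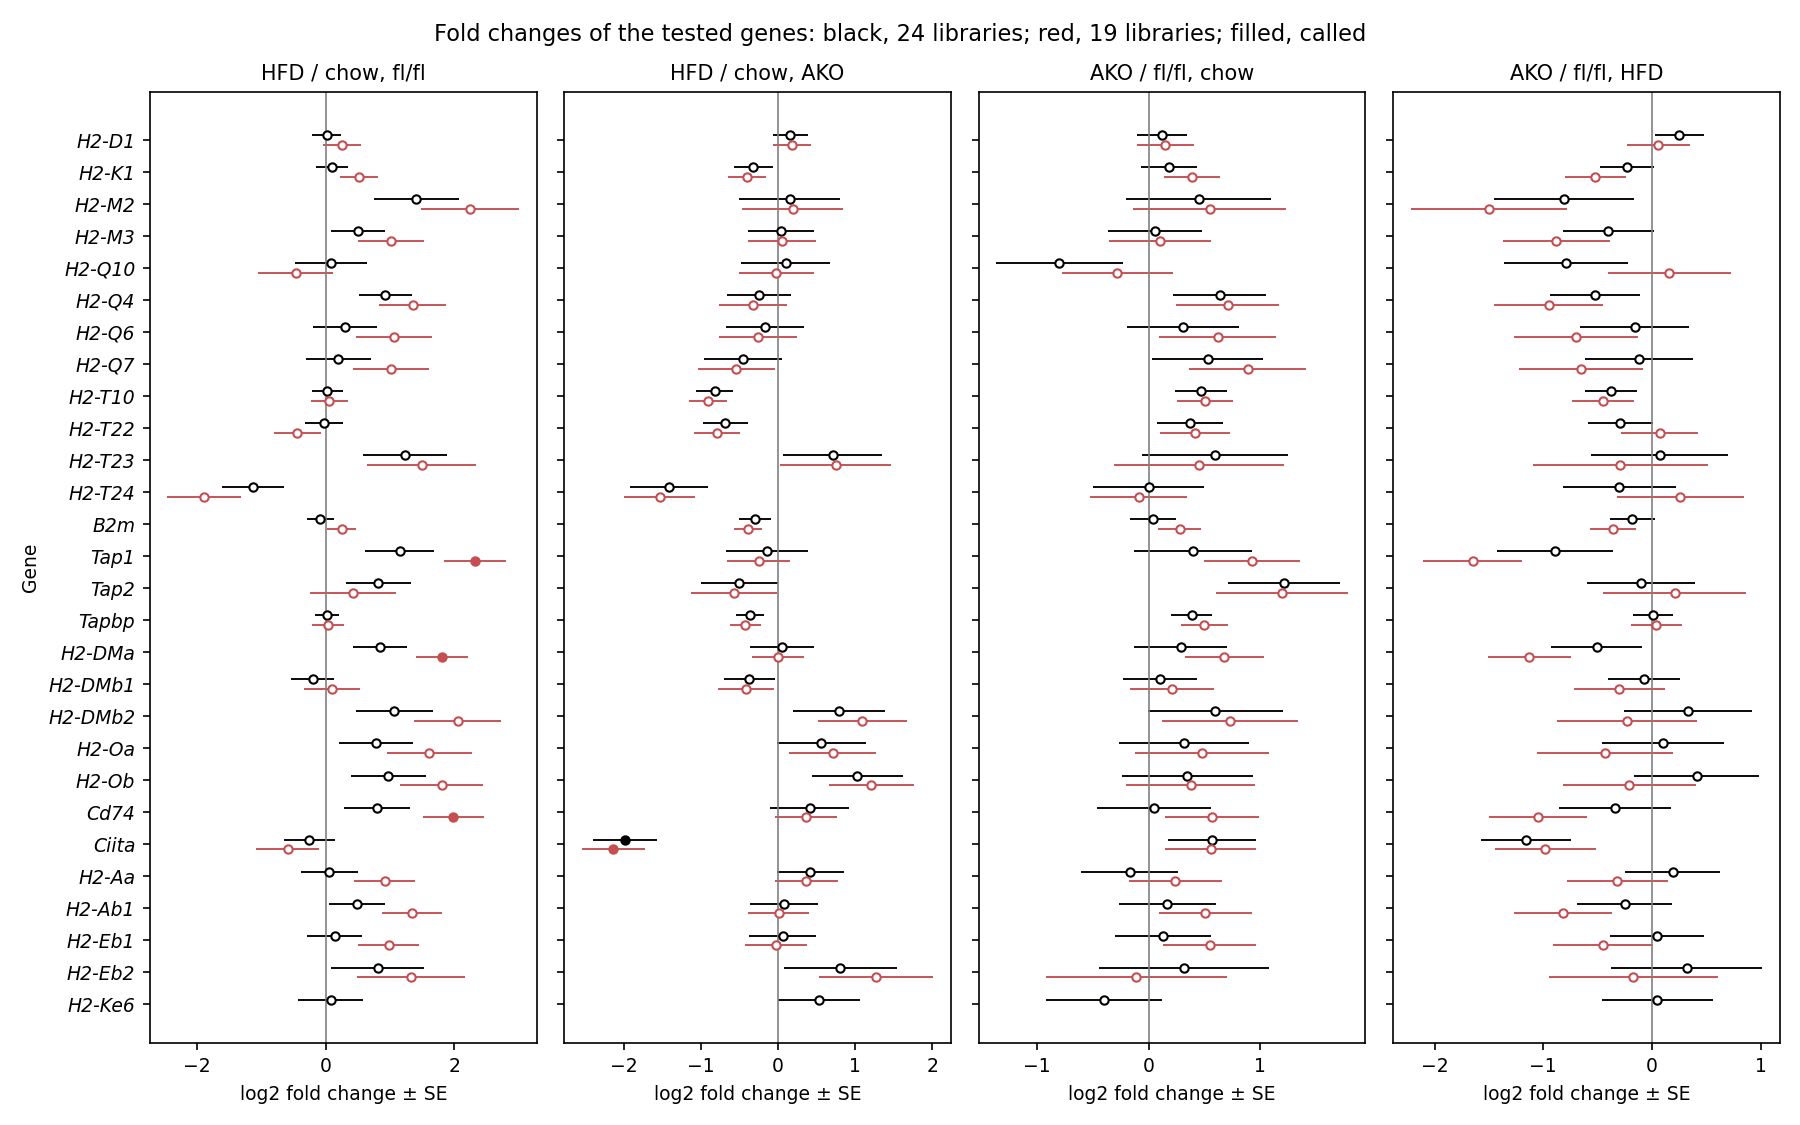
Log2 fold changes with standard errors (horizontal axes) of the 28 tested genes in the 4 comparisons, over 24 libraries in black and over 19 libraries in red, with called values filled. Ciita in the AKO diet comparison is filled in both sets, while Tap1, Cd74 and H2-DMa in the fl/fl diet comparison are filled only for 19 libraries.

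The interaction asks whether the diet difference itself differs between genotypes. Over 24 libraries 0 of 28 members were called by edgeR, beside 0.386% of all genes, and Ciita (-1.72 ± 0.57) and H2-T10 (-0.85 ± 0.33) passed an unadjusted p of 0.05, beside 15.6% of all genes. DESeq2 and limma-voom also called 0. Among the 19, Tap1 was called at -2.57 ± 0.63 (adjusted p = 0.126 by edgeR), beside 0.68% of all genes. The unadjusted limit was passed by 9 of 27 members (33.3%), all with negative values, beside 12.2% of all genes. Besides Tap1 these were H2-DMa (-1.81 ± 0.52), H2-Q4 (-1.66 ± 0.68), Cd74 (-1.62 ± 0.62), Ciita (-1.54 ± 0.62), H2-Ab1 (-1.33 ± 0.62), H2-T10 (-0.96 ± 0.38), H2-K1 (-0.92 ± 0.38) and B2m (-0.64 ± 0.29). The 3 HFD-fed fl/fl libraries in this set are those with the highest class II sums of their group, as given above. With each of the 19 left out in turn, Tap1 lay between -2.93 and -1.82 and was called in 11 of the 19 fits. It was lost without replicates 1, 4 or 6 of chow-fed fl/fl, 1 or 5 of HFD-fed fl/fl, and 4, 5 or 6 of HFD-fed AKO. With limma-voom on the 19 libraries it was -2.15 and not called.

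Ordered by the class II sum, the libraries did not line up by group. The 3 highest were replicate 1 of HFD-fed fl/fl, replicate 6 of chow-fed AKO and replicate 3 of chow-fed fl/fl, and the 3 lowest were replicate 1 of chow-fed fl/fl, replicate 4 of HFD-fed fl/fl and replicate 1 of chow-fed AKO. Those 3 lowest had the highest adipocyte marker sum (45167 CPM), the next highest (44225) and 37066, and macrophage sums of 1365, 1965 and 2011 CPM. The 3 highest libraries had macrophage sums of 9505, 6410 and 9377 CPM. The order was not that of macrophage markers alone. Replicate 4 of HFD-fed AKO had the highest macrophage sum of all, 11409 CPM, with a class II sum of 3618 CPM. Replicate 6 of chow-fed AKO had the highest class I sum (15189 CPM), the highest Ciita (33.8 CPM) and the highest T and NK cell marker sum (108.9 CPM) of all libraries. How far these cell types account for the class II levels was not tested.

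**Figure D5:**
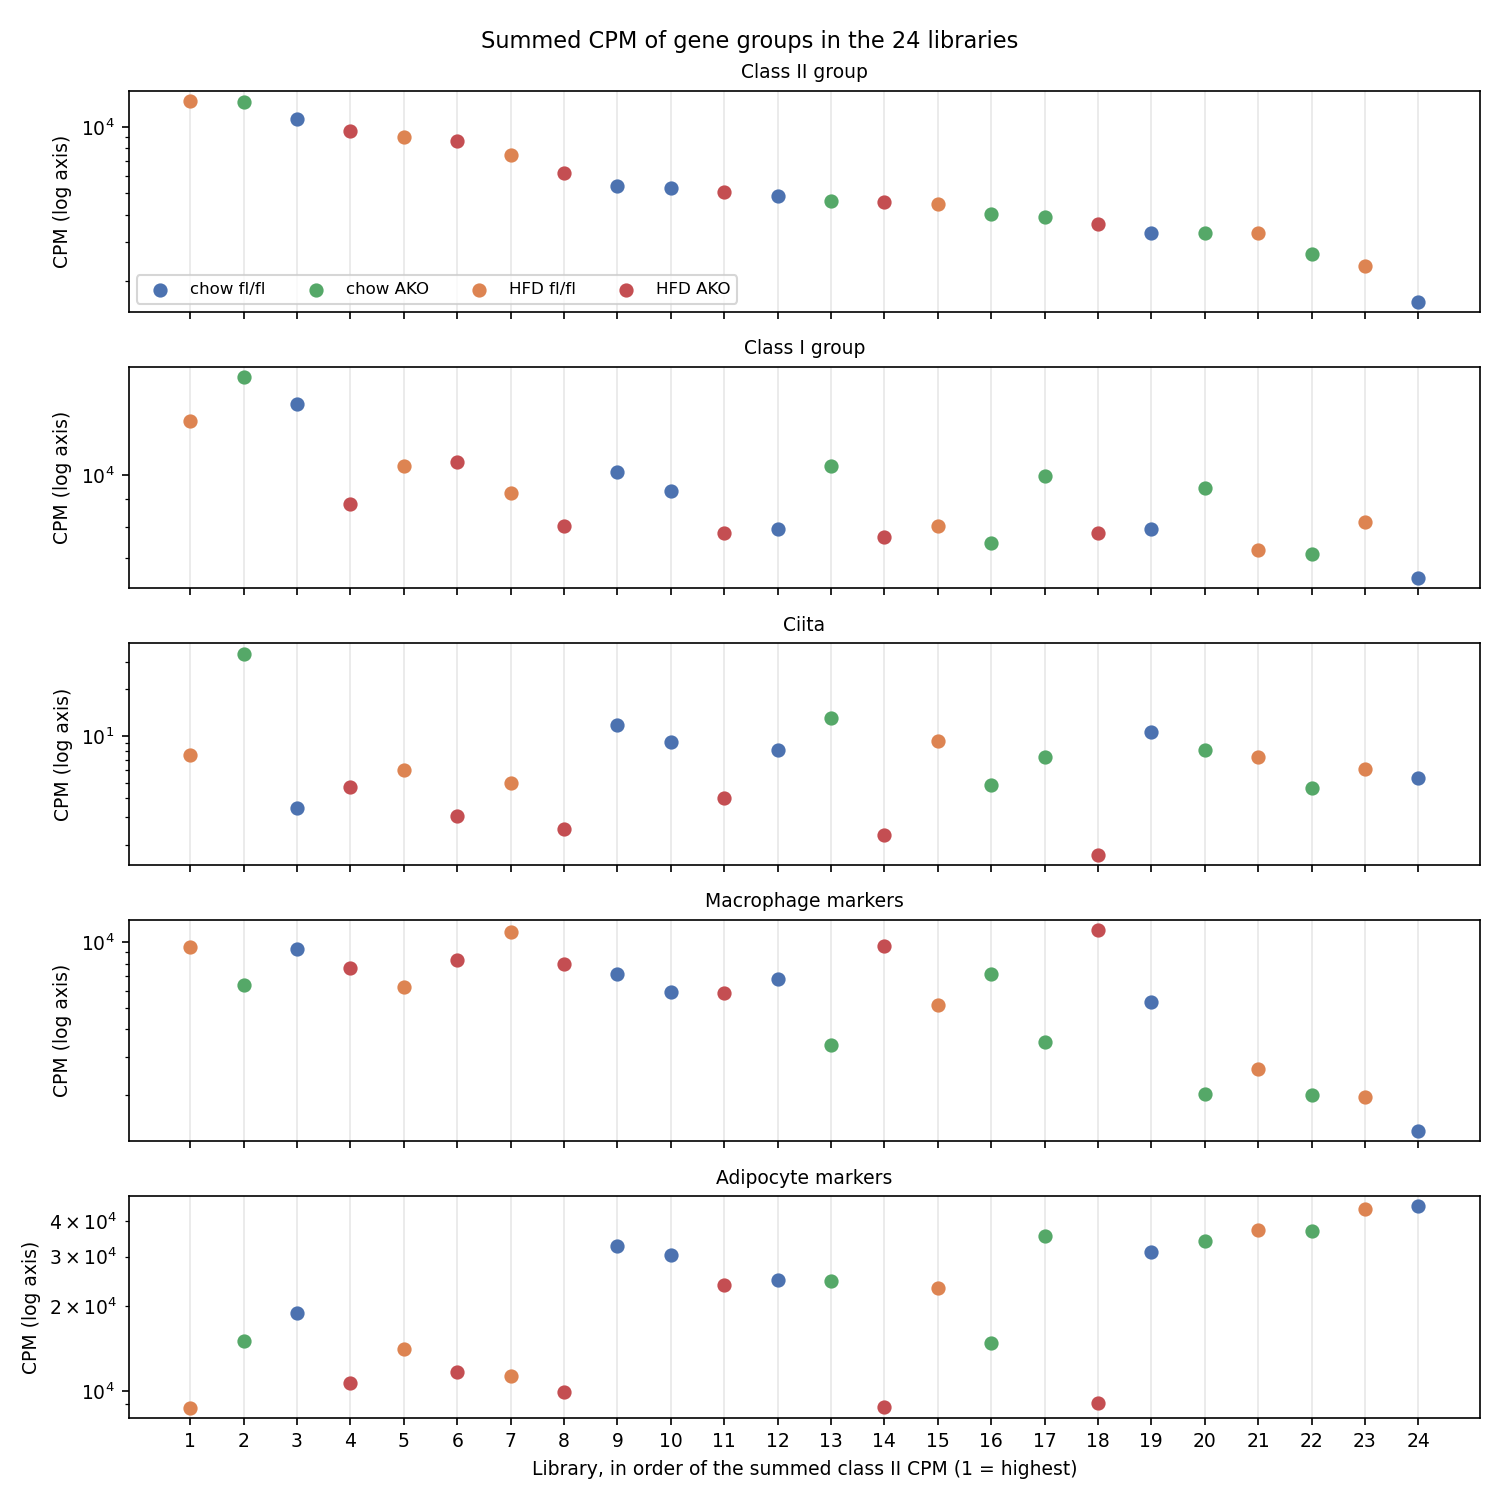
Summed CPM (vertical log axes) of the class II group, the class I group, Ciita, macrophage markers and adipocyte markers in the 24 libraries, ordered along the horizontal axis by the class II sum and coloured by group. Libraries of all 4 groups are mixed along the order, and adipocyte markers reach 45167 CPM in the library with the lowest class II sum, 1609 CPM.

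Of 35 further genes of both pathways, 34 were in the table, and 0 were called in any of the 5 comparisons over 24 libraries by edgeR. In the fl/fl diet comparison 3 passed an unadjusted p of 0.05, all with positive differences: Nlrc5, the coactivator of class I genes (1.01 ± 0.44), Rfxank, a subunit of the factor that binds the X box (0.40 ± 0.16), and Cd80, a costimulatory ligand (1.15 ± 0.53). These 3 of 34 are a share near the 9.01% of all genes. In the 19-library set Nlrc5 (1.95 ± 0.41), Rfxank (0.67 ± 0.17) and Psmb10, a catalytic subunit of the immunoproteasome (1.08 ± 0.26), were called higher on HFD in fl/fl mice, beside 11.8% of all genes called, so the share of the list was below the background. In the AKO diet comparison over 24 libraries, 7 of 34 were higher and 2 lower at the unadjusted limit, a smaller share than the 39.8% of all genes. The higher ones included the lysosomal proteases Ctsb (1.12 ± 0.34), Ctss (1.04 ± 0.50) and Lgmn (0.91 ± 0.43) and the lysosomal thiol reductase Ifi30 (1.34 ± 0.49), which process antigen for class II. Pdia3, a chaperone of class I loading, was lower at that limit (-0.71 ± 0.25). Over the 19 libraries Ctsb (1.37 ± 0.27) and Cd9, a tetraspanin (1.69 ± 0.39), were called higher on HFD in AKO mice. This was a smaller share than the 15.7% of all genes called. Between AKO and fl/fl mice on HFD, 8 of 34 were lower and 0 higher at the unadjusted limit over the 19 libraries. For the interaction 10 were lower and 2 higher in that set. Both shares were larger than those of all genes, 11.1% and 12.2%. With 24 libraries, 1 was lower and 2 higher between genotypes on HFD, beside 14.8% of all genes. For the interaction 1 was lower and 3 higher, beside 15.6%. Nlrc5 had lowest, median and highest values of 8.12, 13.3 and 44.4 CPM in HFD-fed fl/fl against 5.15, 8.46 and 20.4 in chow-fed fl/fl libraries, and the groups overlapped.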

How the data were processed

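eWAT RNA of 24 mice was measured by QuantSeq with 50-base reads, 1 library per mouse. Per the labels, the build was GRCm38. The authors mapped and counted reads with the Lexogen QuantSeq pipeline and deposited raw counts per gene. Whether counting used strand is not given in the sources used here. The deposited normalized signal, which is the counts of each library divided by 1 size factor, served only for symbols and positions. The submitters' processing notes name R 4.0.3 and DESeq2 1.30. Rows below 72 counts in total are not in the table, and totals lay between 5579590 and 18764516 counts. A count of 0 allows up to 3 counts of the library total, for counting error only.

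Here counts were analysed with R 4.3.3, edgeR 4.0.16, limma 3.58.1 and DESeq2 1.42.0. Genes with at least 1 CPM in 3 libraries were kept (15020), scaled by TMM and fitted with 1 coefficient per group over all 24 libraries. The call rule followed the study's criteria, and p-values were adjusted by the Benjamini-Hochberg method. The script was tested on simulated data. The 19-library set was inferred from points the study plotted and from its filter (14855 genes at 1 CPM in 3 libraries without TMM factors), so it is not a stated list. The 60 pairs of libraries within groups differed by at least 5.72 in chi-square per degree of freedom, and none was counted as a duplicate. The p-values set a difference between groups against the spread between mice, with 6 mice per group in the 24 libraries. In the 19 libraries a group held 3 to 6 mice.

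The members and gene lists were chosen with earlier results of these data known, so class medians are descriptions without tests. Named genes are all members, with values by library group for the chains and partners that the rule lists and for further members with an unadjusted p under 0.05, and 35 pathway genes. Dexi and the other genes that overlap members, the relations of Ciita and the fits that leave out each of the 19 libraries were added after seeing the data. H2-Q5, H2-K2 and H2-T-ps have rows without a symbol and were left out by the rule. Alternatives were the 19 libraries, limma-voom, DESeq2, RLE size factors, other filters, fits of 2 groups, a replicate block, other call rules and each library left out. Motifs were sought in RefSeq windows with Python. The values of 1 gene of the pathway list are not reported here.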

Additional observations from a re-analysis of the deposited data

Results flagged for a closer look

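In 112 groups of 6 libraries, 13 had a library that exceeded Dixon's limit, and chance flags about 1 in 20 groups. The measure is the gap of a library to its neighbour in log2 CPM, as a share of the range of the group. Replicate 6 of chow-fed AKO stood apart as the highest for Tap1 (146.7 CPM), H2-DMa (188.2), Cd74 (2107), H2-Aa (4616), H2-Ab1 (2842) and H2-Eb1 (2958). It also had the highest T and NK cell marker sum, and its part in these values was not tested. Replicate 3 of chow-fed fl/fl was the highest for Tap1 (91.2 CPM). Replicate 1 of chow-fed fl/fl, the library with the highest adipocyte sum, was the lowest for H2-M2 (1.32 CPM), H2-M3 (4.06) and H2-DMb1 (29.7). Replicate 2 of HFD-fed fl/fl was the lowest for H2-T22 (9.13 CPM) and Tap2 (4.34). Replicate 2 of HFD-fed AKO was the lowest for Tapbp (209.6 CPM).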

How the results depend on the processing

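The number of members called moved as follows. For HFD against chow in fl/fl mice it was 0, and 3 over the 19 libraries and with limma-voom on the 19, and 4 at an unadjusted p under 0.05 alone. For HFD against chow in AKO mice it was 1, and 0 with limma-voom. It was 2 at an adjusted p of at most 0.05 (Ciita and H2-T10) and 4 at an unadjusted p under 0.05 alone. For AKO against fl/fl it was 0, and on chow 2 and on HFD 1 at an unadjusted p under 0.05 alone, and on HFD 1 in the fit of 2 groups only (Ciita). For the interaction it was 0, and 1 over the 19 libraries and 2 at an unadjusted p under 0.05 alone. The class II median of the fl/fl diet comparison was 0.78, and 1.60 with limma-voom on the 19. The causes were not tested.

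With 1 library left out of the 24 or of the 19, the called members lay between 0 and 4 for the fl/fl diet comparison, 1 and 3 for the AKO diet comparison, 0 and 0 for AKO against fl/fl on chow, 0 and 1 on HFD and 0 and 1 for the interaction. The class I medians lay between 0.05 and 0.81, -0.48 and 0.25, -0.13 and 0.59, -0.69 and -0.14, and -1.23 and -0.17 in that order, and the class II medians between 0.29 and 1.85, 0.05 and 0.95, -0.24 and 0.68, -0.77 and 0.28, and -1.42 and 0.12. Of 24 pairs of libraries with the same replicate number, 10 correlated above 0.1, and in 6 the own partner was the best match. These counts were not set against chance, so they do not decide whether the number pairs the libraries. With the replicate block the called members were 0, 1, 0, 0 and 0. Ciita was at -1.76 in the AKO diet comparison with the replicate block. Low genes such as H2-T24, H2-T10 and H2-Eb2 are limited by few counts.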
